A study of Drosophila melanogaster with 2 samples.

Results

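The Hippo pathway core genes are 10 Drosophila melanogaster genes chosen by name: hpo, sav, wts, mats, yki, sd, ex, Mer, kibra and Diap1. They are 10 of 13968 protein-coding genes on the main chromosome arms. Peaks were assigned to a gene when the summit fell inside its annotated body or no more than 500 bp from an annotated transcription start site (TSS). The data are lists of peaks from chromatin immunoprecipitation followed by sequencing (ChIP-seq) with an anti-GFP antibody, so a peak marks DNA recovered with the zinc-finger protein Nerfin-2 fused to eGFP. The 2 samples, labelled biological replicates 1 and 2, form 1 group: embryos of the transgenic strain nerfin-2-GFP, collected 8 to 24 h into embryogenesis and used whole. The age is that of the source label, since a separate age label holds a number of hours too large for an embryo. The labels describe the strain as an insertion targeting nerfin-2 and do not give the promoter that drives the fusion. Whole embryos mix many cell types, so a peak cannot be placed in one of them, and no list from a control immunoprecipitation was analysed here.

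The Hippo pathway limits tissue growth and is best known from the larval imaginal discs. The kinase Hpo, with its scaffold Sav, activates the kinase Wts, which works with its cofactor Mats. Wts phosphorylates the co-activator Yki and keeps it out of the nucleus. Unphosphorylated Yki enters the nucleus, binds the DNA-binding protein Sd and turns on growth and survival genes such as Diap1. Ex, Mer and Kibra are scaffolds at the apical cell cortex that act upstream of Hpo. Nerfin-2 belongs to the same zinc-finger family as Nerfin-1, a factor of the developing nervous system.

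Of the 10 genes, 6 had a summit within 500 bp of a TSS in the conservative thresholded list, which the authors made from both replicates together: hpo, sav, wts, mats, yki and Diap1. Over all protein-coding genes, 2709 of 13968 had one, or 19.4%. The core cassette of kinases and their partners was covered in full, with summits at hpo, sav, wts and mats. Of the upstream scaffolds, ex, Mer and kibra had no such summit in any of the 4 thresholded lists, and neither had sd. A second thresholded list from both replicates held the same 6 genes, against 21.4% of all protein-coding genes. The thresholded list of replicate 1 held 5 of them, without mats, against 18% of all genes, and that of replicate 2 held 4, without mats and yki, against 13.6% of all genes.

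The 6 genes carried signals, the strength value the authors deposited for each peak, of 83.3 to 216 in the conservative list. Their median was 159, and the median of all 2709 bound genes was 148, with quartiles at 103 and 225. Diap1 had 216, sav 207 and wts 203, which placed them above 72.8%, 70.2% and 69.3% of the bound genes. The signal of hpo was 115 and stood above 33.3% of them. The lowest were yki with 88 and mats with 83.3, above 14% and 10.6% of the bound genes. The members thus spanned both sides of the middle of the bound promoters, and none was among the 500 strongest peaks, whose lowest signal was 227.

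**Figure D1:**
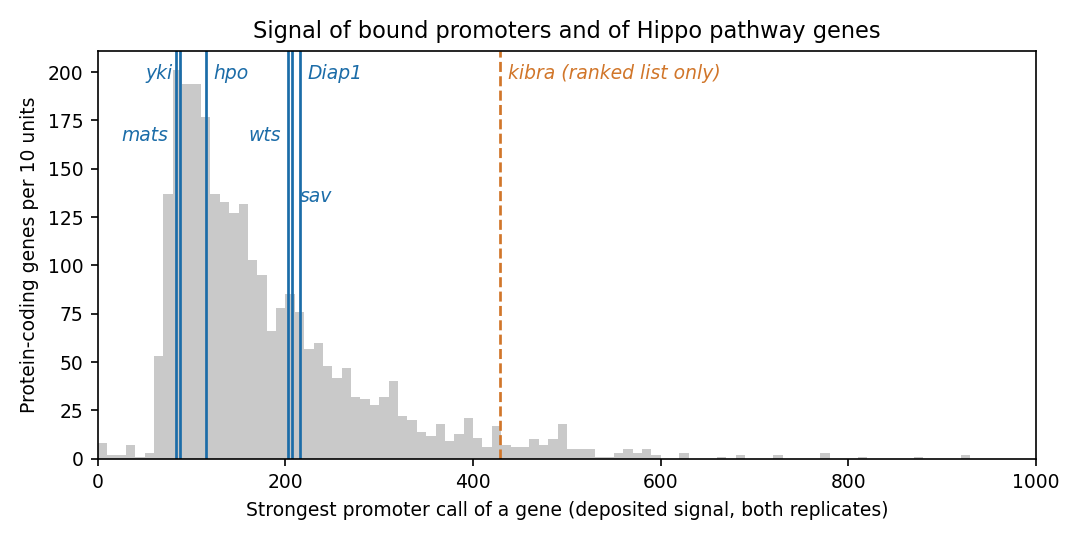
Histogram of the strongest conservative promoter signal of each bound protein-coding gene (x axis, deposited signal; y axis, genes per 10 units), with the bound Hippo pathway genes as solid lines and kibra, which was in the ranked list and not in the thresholded one, as a dashed line. The members with thresholded calls lie at 83.3 to 216 and kibra at 429; 4 genes above 1000 are not drawn.

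In single replicates the values of Diap1, wts and sav all lay above those of the other bound members, hpo, yki and mats. This split of the 6 was read from the same values, so the gap is a description only. Diap1 had 123 in replicate 1 and 99.4 in replicate 2 (111 ± 16.7, SD, n = 2). The values of wts were 105 and 118 (111 ± 9.48, n = 2), and those of sav 102 and 112 (107 ± 7.24, n = 2). Within each replicate wts stood slightly above sav, while Diap1 stood above both in replicate 1 and below both in replicate 2. The place of Diap1 among these 3 genes was thus not settled. All 3 exceeded hpo, with 69.6 and 48.7 (59.1 ± 14.8, n = 2). Within each replicate hpo in turn stood above yki, at 53.5 and 45.1 (49.3 ± 5.97, n = 2). Lowest of the 6 in each replicate was mats, with 47.4 and 37.5 (42.5 ± 7.03, n = 2). Across replicates the values of hpo and yki, and those of yki and mats, interleaved, so their order rests on the comparison within each of 2 replicates. With 2 replicates no exact test could pass a threshold of 0.05, and none was run.

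**Figure D2:**
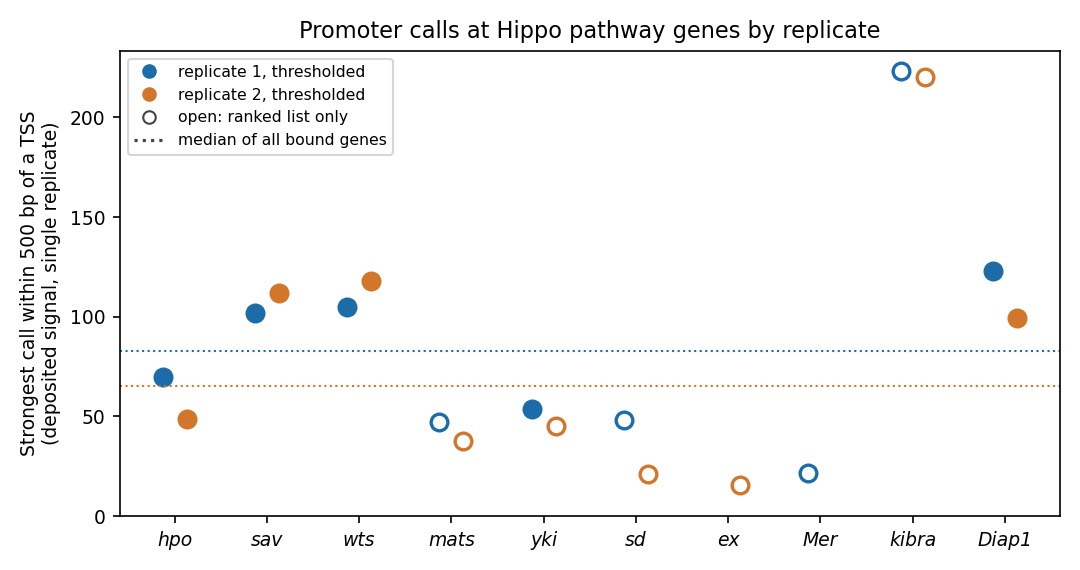
Strongest call within 500 bp of a TSS of each gene (y axis, deposited signal) in replicate 1 (blue) and replicate 2 (orange), filled where the call was in that replicate's thresholded list and open where it was in the ranked list only; dotted lines are the medians of all bound genes, 83 in replicate 1 and 65.1 in replicate 2. Diap1, wts and sav lie at 99.4 or more in both replicates, and hpo, yki and mats at 69.6 or less.

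Replicate 1 gave the higher value at 4 of the 6 genes, hpo, mats, yki and Diap1, and replicate 2 at sav and wts. Over the 2699 bound genes with a call in both replicates, replicate 1 was higher at 2115, or 78.4%, with a median ratio of 1.26. Ranked within these genes, sav stood 973rd in replicate 1 and 548th in replicate 2, and wts 910th and 474th, so both ranked higher in replicate 2. Diap1 kept nearly the same place, 718th and 713th. A signal from both replicates together was close to the sum of the replicate signals, with ratios of 0.892 to 0.98 at the 6 genes and kibra against a median of 0.997 over all bound genes, so single-replicate and pooled signals are not on the same scale. The number of reads behind each list is unknown.

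Hpo is the kinase that gives the pathway its name. Its gene (FBgn0261456) lies on chromosome arm 2R at 19493996 to 19496856 of build dm6, on the minus strand, with 1 annotated TSS. Its conservative summit lay 9 bp upstream of the TSS with a signal of 115. The irreproducible discovery rate (IDR), the authors' measure of how far the ranking of a peak differs between sets of peaks, was 0.00179, where the conservative list reached up to 0.01. Replicate 2 placed the summit at the same base, 9 bp upstream, and replicate 1 placed it 42 bp upstream. The nearest TSS of another protein-coding gene, CG15120, was 896 bp away, so hpo did not share its summit.

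Sav is the scaffold of Hpo, Wts the downstream kinase and Mats the cofactor of Wts, and their genes all lie on arm 3R. Sav (FBgn0053193, 23058609 to 23061304, minus strand) had its summit 145 bp upstream with a signal of 207 and an IDR of 0.000273. That summit was nearer to Ublcp1, a phosphatase gene on the opposite strand, whose TSS was 44 bp away and 189 bp from that of sav. Wts (FBgn0011739, 30789625 to 30806619, minus strand) had its summit 30 bp upstream with a signal of 203, an IDR of 0.000222 and, at 468 bp, the TSS of dj-1beta on the opposite strand. Mats (FBgn0038965, 22421161 to 22423302, plus strand) differed from the others: its summit lay downstream, 170 bp inside the nearest of its 2 TSSs, in the 5′ UTR. Its signal was 83.3 and its IDR 0.00489, and Nop56, a ribosome biogenesis gene on the opposite strand, has a TSS 427 bp from the summit. In the ranked lists of single replicates, which hold calls below the threshold too, mats had IDRs of 0.0134 in replicate 1 and 0.15 in replicate 2. Its promoter call thus passed the threshold in the lists that join both replicates and in neither replicate alone.

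The DNA upstream of these 3 genes is shown because it holds the summits of sav and wts, and for mats because its summit lies elsewhere. Sequences are from the Release 6 reference genome (dm6), read 5′ to 3′ on the gene's strand so that the last base adjoins the TSS, and none overlaps an annotated exon. Capitals mark the DNA replication-related element (DRE) TATCGATA, or its inner 6 bases ATCGAT where the flanks differ, both of which read the same on either strand. The windows are chr3R:23061305-23061492 for sav, the whole span between the sav and Ublcp1 TSSs, chr3R:30806620-30806769 for wts and chr3R:22421069-22421160 for mats, the whole span between mats and Nop56.
sav: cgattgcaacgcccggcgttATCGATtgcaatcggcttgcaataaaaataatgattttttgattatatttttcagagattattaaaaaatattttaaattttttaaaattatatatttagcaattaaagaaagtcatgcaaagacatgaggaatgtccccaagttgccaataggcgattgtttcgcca
wts: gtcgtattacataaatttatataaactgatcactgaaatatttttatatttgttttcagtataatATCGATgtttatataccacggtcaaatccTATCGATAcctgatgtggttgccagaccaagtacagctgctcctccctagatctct
mats: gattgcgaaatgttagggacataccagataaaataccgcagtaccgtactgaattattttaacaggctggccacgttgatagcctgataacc
The sav window held no complete DRE. Its capitals begin 168 bp upstream of the TSS, and a further ATCGAT begins at -190, across the Ublcp1 TSS, so that its first bases are cut off here. The nearest ATCGAT centre was 20.5 bp from the sav summit. In wts a complete DRE begins at -56 and its centre was 22.5 bp from the summit. A further DRE begins at position 4 and another at position 18 of the transcript, counting the TSS as 1, and an ATCGAT at -85. The mats window held neither motif, and none lay within 300 bp of its summit.

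Sav and mats each had a weaker conservative call beside the strong one. That of sav had a signal of 7.67, 210 bp from the strong summit, and that of mats 16.8, 211 bp from it. Each weak call bore the same score as its strong neighbour, 1000 at sav and 959 at mats, the score being a whole number up to 1000 that rises as the IDR falls. The intervals of weak and strong calls overlapped, and with 1 call kept per overlapping cluster the same 6 genes were bound.

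**Figure D3:**
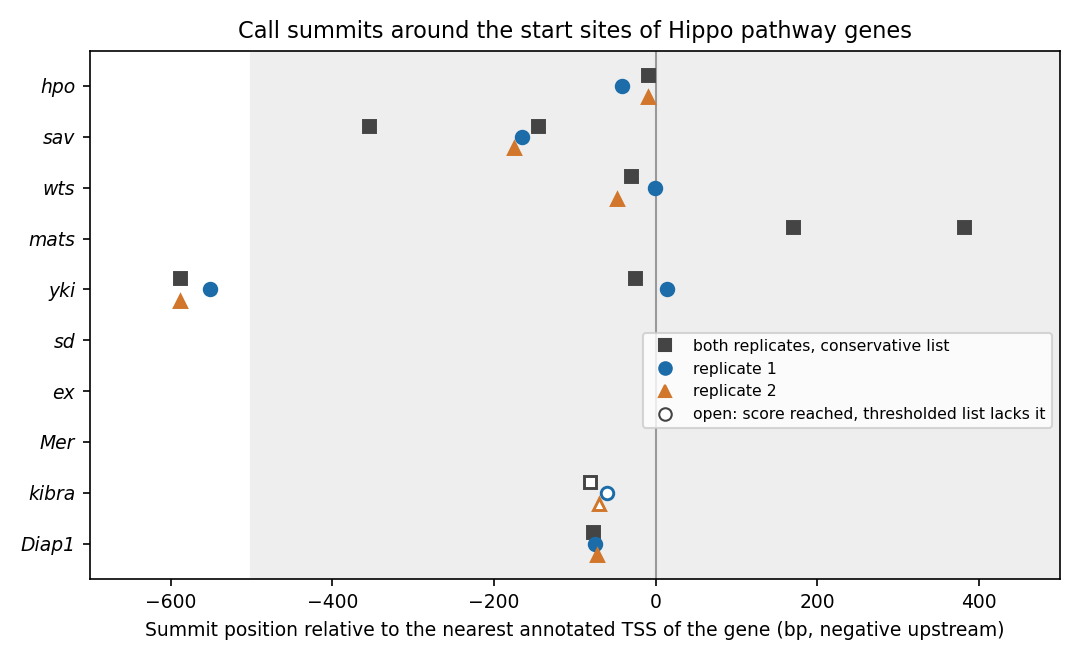
Summit positions relative to the nearest TSS of each gene (x axis, bp, negative upstream; shaded, the 500 bp windows) in the conservative list (squares), replicate 1 (circles) and replicate 2 (triangles), open where the score reached the threshold and the thresholded list lacked the call. Summits lie upstream of hpo, sav, wts, kibra and Diap1, on both sides of the yki TSS and downstream of mats, and sd, ex and Mer have none.

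The strongest summit lay upstream of the nearest own TSS in 5 of the 6 bound members, against 80.5% of all bound genes, whose median distance from the TSS was 68 bp. At 4 of the 6 bound members, sav, wts, mats and yki, the strongest summit also lay within 500 bp of a TSS of another protein-coding gene. This was the case for 1530 of the 2709 bound genes, or 56.5%. The peak calls do not tell which gene of such a pair a summit belongs to. A TSS of another gene lay within 500 bp of a TSS of sav, wts, mats, yki and sd, so sd had a close neighbour, PGRP-LE at 490 bp, without a thresholded summit. Over all protein-coding genes, this was so in 57.7% of the bound genes and in 24.4% of the others.

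Yki, the co-activator held back by Wts, is encoded on arm 2R at 24065975 to 24068485, minus strand (FBgn0034970). The conservative summit nearest to its TSS lay 25 bp upstream with a signal of 88 and an IDR of 0.00281. The call was in the thresholded list of replicate 1, where its score was 871, and in replicate 2 it was in the ranked list only, with a score of 768, below the lowest score of any thresholded list, 830. A stronger conservative call with a signal of 117 lay 588 bp upstream of yki, outside the window, and 23 bp downstream of a TSS of Gpat4, a glycerolipid synthesis gene on the opposite strand. That Gpat4 TSS is not the one nearest to yki, which lies 272 bp from the yki TSS. The stronger call was in both replicates' thresholded lists, with 80.3 in replicate 1 and 52.6 in replicate 2. It counts toward yki with a window of 1000 bp.

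Sd, the DNA-binding partner of Yki, had no thresholded summit at a TSS or in its body. Its gene (FBgn0003345) is on X at 15804370 to 15827682, plus strand, with 7 TSSs. Lower in confidence, the ranked list behind the conservative list had 8 summits within 500 bp of these TSSs, with signals of 2.38 to 55.9. The strongest had a score of 76 and an IDR of 0.655, and the nearest conservative summit was 1.43 kb from a TSS. The best ranked call gave 48 in replicate 1 and 21.2 in replicate 2, at summits 563 bp apart. Its further calls were not compared between the replicates. A ranked promoter call alone separates little: all 10 members had one, as did 84.6% of all protein-coding genes.

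The scaffolds Ex and Mer also had no thresholded call at a TSS or in the gene body in any list. Ex (FBgn0004583, arm 2L, 431227 to 448701, plus strand) is both an upstream regulator and a known transcriptional target of Yki. Its ranked promoter call had a signal of 16.6 and an IDR of 0.823, was at 15.4 in replicate 2 and was not called in replicate 1. Mer (FBgn0086384, X, 19689697 to 19693500, minus strand), the fly homologue of the NF2 tumour suppressor, had 24.6 with an IDR of 0.658, was at 21.6 in replicate 1 and was not called in replicate 2. Neither call was thus present in both replicates. The nearest conservative summits lay 9.75 kb from the TSS of ex and 3.6 kb from that of Mer. The strongest ranked call inside ex, 2761 bp from its TSS, had a signal of 61 and a score of 716, and that inside Mer had 54.8 and a score of 403. The 100 bases upstream of each TSS, chrX:19693501-19693600 for Mer and chr2L:431127-431226 for ex, are shown for contrast with the bound promoters.
Mer: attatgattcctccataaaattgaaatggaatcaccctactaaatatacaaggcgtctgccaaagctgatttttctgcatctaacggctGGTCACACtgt
ex: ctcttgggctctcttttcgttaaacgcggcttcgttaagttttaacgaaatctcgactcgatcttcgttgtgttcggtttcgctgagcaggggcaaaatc
Neither holds a DRE or ATCGAT. The capitals in Mer mark GGTCACAC, the core of the motif bound by the promoter factor M1BP, which begins at -11.

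Kibra, the third scaffold and a partner of Mer, differed between the kinds of list. Its gene (FBgn0262127, arm 3R, 14697689 to 14724261, minus strand) had no promoter summit in any thresholded list. In the ranked list behind the conservative one it had a call 81 bp upstream of the TSS with a signal of 429, above the signals of 95.6% of the bound genes. Its score was 1000 and its IDR 1e-05, the lowest value that list holds, shared by 119 calls. The replicates gave 223 at 60 bp upstream and 220 at 70 bp upstream (221 ± 1.74, SD, n = 2), also with scores of 1000. Both exceeded the values of every other member. The call was 1 of 81 on the main arms that reached the lowest score of the conservative list, 830, and were not in it, and stood 4th among them by signal. These calls lay within 500 bp of a TSS of 58 protein-coding genes, 56 of which had no other conservative promoter summit, and kibra was the one member among them. The deposited text names a further input to the thresholded lists, not analysed here, and gives no reason for single calls; with these calls added, 7 of the 10 members had a promoter summit, against 19.8% of all genes.

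The 150 bases upstream of kibra, chr3R:14724262-14724411, are shown because they hold this summit, with DREs in capitals.
kibra: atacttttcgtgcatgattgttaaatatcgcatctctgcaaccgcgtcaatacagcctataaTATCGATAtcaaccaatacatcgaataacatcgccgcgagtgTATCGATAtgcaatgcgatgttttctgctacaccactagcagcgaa
DREs begin at -88 and -46, and the nearest DRE centre was 3.5 bp from the summit.

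Diap1, the caspase inhibitor that Yki and Sd switch on, is on arm 3L at 16038410 to 16051034, minus strand (FBgn0260635). Of its 5 TSSs, the outermost had the call, 77 bp upstream, and the next TSS lies 363 bp further inside, so the summit is within 500 bp of both. The summits of replicates 1 and 2 lay 75 bp and 73 bp upstream, 2 bp apart. At the other bound members they were 10 bp apart for sav, 33 bp for hpo, 47 bp for wts, 53 bp for yki and 86 bp for mats. The median over all bound genes was 22 bp, so 4 of the 6 lay above it. The signal was 216, the IDR 0.000243, and no TSS of another protein-coding gene lay within 500 bp of the summit. The bound genes with the nearest signals were RecQ5 above and CG42699 below, both also 216 after rounding. RecQ5 had 138 in replicate 1 and 18.7 in replicate 2, with its pooled summit at -493, near the edge of the window, and CG42699 had 112 and 115. The 150 bases upstream of Diap1, chr3L:16051035-16051184, are shown because the summit falls on a DRE.
Diap1: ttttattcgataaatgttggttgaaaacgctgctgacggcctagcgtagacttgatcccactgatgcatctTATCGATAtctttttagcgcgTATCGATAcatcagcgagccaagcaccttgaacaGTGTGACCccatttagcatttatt
The DREs begin at -79 and -58, and the nearest DRE centre was 1.5 bp from the summit. The third run of capitals, GTGTGACC at -24, is the M1BP core on the other strand.

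Of the 6 bound members, wts and Diap1 had a DRE within 50 bp of their strongest summit. Over the 1936 strongest promoter summits of all bound genes, 468 had one, or 24.2%. The inner ATCGAT was within 50 bp at sav, wts and Diap1, against 48.8% of all these summits. CGATA, a core of the motif of the insulator protein BEAF-32 and a part of every DRE on both strands, was there at sav, wts, yki and Diap1, against 66.4%. GGAATG, the core bound by Sd, was within 50 bp of the yki summit only, against 3.31% of all summits, and GGTCACAC at none of the 6, against 3.72%. Both strands were searched. These counts are of letters and do not show binding by any factor.

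Across promoters regardless of peaks, from 250 bp upstream to 50 bp downstream of each TSS, hpo, wts, kibra and Diap1 held a DRE, against 10.2% of protein-coding genes. That of hpo began at -136 and its centre lay 124 bp from the summit. Wts, kibra and Diap1 held more than 1 DRE in 1 window, against 1.05% of genes. GGTCACAC was in the windows of mats, Mer and Diap1, against 8.69%. GGAATG was in those of sav, yki, sd and Diap1, against 14.3%. At Diap1 it was in windows of inner TSSs and not in that of the outermost, the TSS nearest to the summit. With 7 and 5 TSSs, sd and Diap1 had more windows than most members. The DRE thus occurred at 3 of the 6 bound members and at kibra. It was absent from the bound sav, mats and yki as well as from sd, ex and Mer. Its absence thus did not tell unbound from bound members. Hpo, wts, kibra and Diap1, which held it, each had a pooled ranked promoter call with a score of 1000. So had sav and yki, which did not hold it. GGAATG occurred at bound members and at sd, which had no thresholded summit.

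Inside gene bodies, 2 of the 10 members had a conservative summit, mats and kibra, against 1193 of 13968 protein-coding genes, or 8.54%. The body calls of mats were the promoter calls described above, since they lie downstream of its TSS. Kibra had 3 intronic summits, 7879, 9883 and 17275 bp downstream of the TSS. The call at 17275 bp had a signal of 174 and was in both replicates' thresholded lists, with 119 in replicate 1 and 47 in replicate 2. The call at 9883 bp had 72.2 and was in the thresholded list of replicate 1, with 54.5, and not in that of replicate 2. That at 7879 bp had 87.8 and was in neither replicate's thresholded list. Kibra is 26573 bp long, and of the 770 protein-coding genes at least that long, 185 had a conservative body summit, or 24%. Outside promoter windows, 12 of the 770, or 1.56%, had 3 or more, kibra included. Both the length floor and the count of 3 were taken from kibra itself, so this share does not measure how unusual kibra is.

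**Figure D4:**
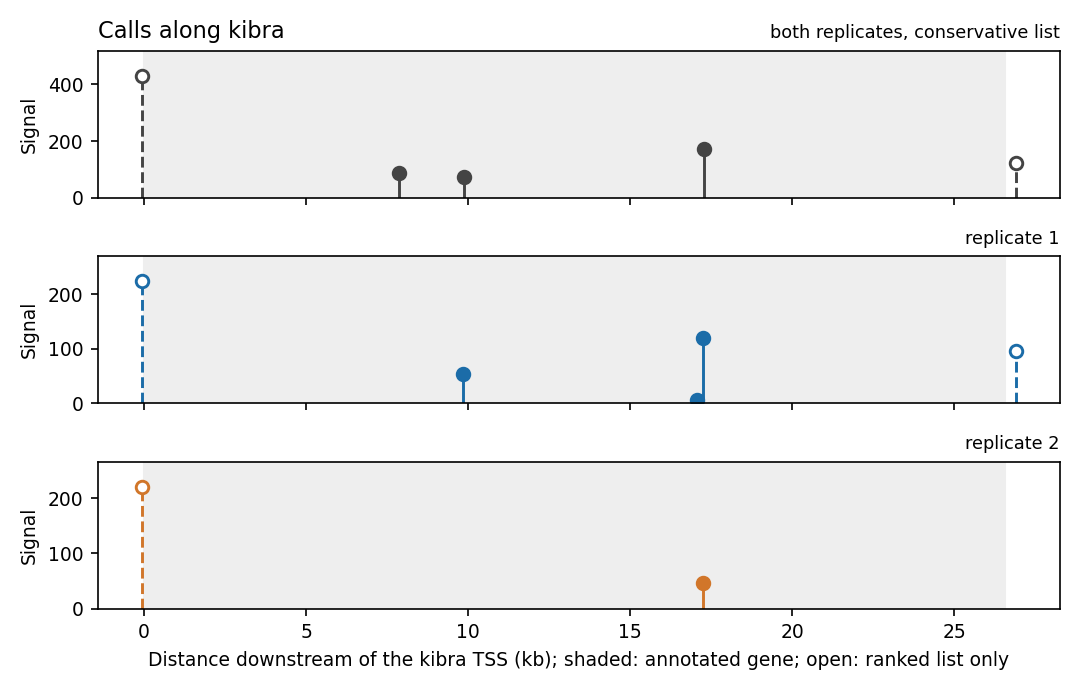
Calls along kibra by distance from its TSS (x axis, kb; shaded, the annotated gene) with their deposited signal (y axis) in the conservative list, replicate 1 and replicate 2; filled points were in the thresholded list and open points in the ranked list with a score that reached the threshold. The promoter call is open in all 3 panels, at 429, 223 and 220, and the intronic call at 17275 bp is filled in all 3.

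Wts had an intronic call as well, 9029 bp downstream of its TSS, whose place depended on the list. It had a signal of 77.1 in the second thresholded list and 57.6 in the list of replicate 1. In replicate 2 it was ranked with 28.6 and a score of 135, and behind the conservative list its score was 759, below the threshold. In Diap1 the second list added a call of 68.5 just past the annotated end of the gene, which the conservative list did not hold.

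A further 56 genes of the pathway were read in the same way. A conservative promoter summit was present at 60% of the 10 core genes, at 17 of the 56, or 30.4%, and at 19.4% of all protein-coding genes. The group drawn as kinases acting on Hpo or Wts also holds kinases with other targets and a regulator that is not a kinase. Of its 8 genes, 4 were bound: hppy, Sik3, Tao and msn. The signal of hppy, a Wts kinase, was 302 (replicate 1 gave 178 and replicate 2 gave 118). Sik3, which acts on Sav, had 294 (166 and 136), and Tao, the kinase of Hpo, had 147 (64.2 and 84.7). Among partners of Yki and Sd, 4 of 10 were bound, led by 14-3-3zeta, which holds phosphorylated Yki, with 294 (181 and 106). Mad, a SMAD factor that binds Yki, had 105 (58 and 54), and Tgi, a co-repressor of Sd, had 77.3 (37.4 and 69.9). The fourth of them, mask, counted through a call of 6.47 only, and was singled out after its value was seen.

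Apical and junctional regulators had 5 of 15 bound. The strongest were dlg1, a basolateral polarity scaffold, with 208 (110 in replicate 1 and 76.7 in replicate 2), Pez, which binds Kibra, with 194 (102 and 110), and alpha-Spec, of the membrane skeleton, with 179 (86.7 and 86.8). In the STRIPAK phosphatase complex, which opposes Hpo, 2 of 7 were bound: Pp2A-29B, a scaffold subunit, with 483 (237 and 242), and Mob4 with 230 (138 and 101). The Fat branch had 1 of 10, dco, a casein kinase, with 83.5 (62 and 35.5). Of 6 further Yki targets, E2f1, a cell cycle transcription factor, was bound, with 100 (59 and 50.8). The Fat branch (10%), the Yki targets (16.7%) and the STRIPAK complex (28.6%) lay near the share over all genes, 19.4%, and 1 gene more or less would carry each across it. Above 19.4% lay the shares of the kinase group (50%), the partners of Yki and Sd (40%) and the apical and junctional regulators (33.3%). These shares rest on small numbers of genes, and the 40% counts mask, whose only conservative promoter call was 6.47.

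**Figure D5:**
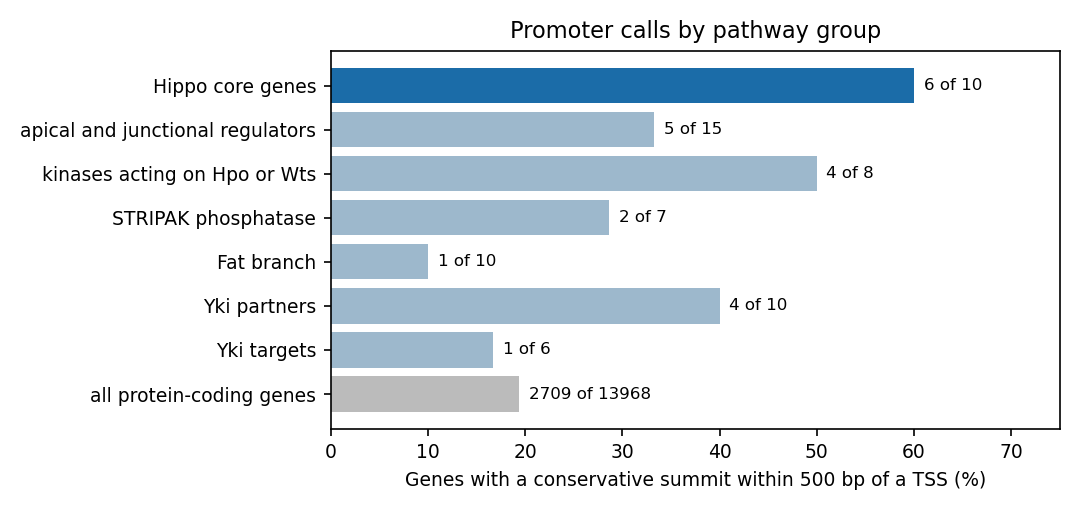
Share of genes with a conservative summit within 500 bp of a TSS (x axis, %), for the core genes, the other groups of the pathway and all protein-coding genes, with counts beside the bars. The core genes are at 60% and all protein-coding genes at 19.4%.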

How the data were processed

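ChIP-seq peak lists of 1 group of 2 replicates were used, as deposited on build dm6, per the labels. The tools for alignment and peak calling were not given in the sources used here. Per replicate, the authors deposited a thresholded and a ranked list, and from both replicates together a conservative and a second thresholded list with a ranked list behind each. Each peak has a signal and a score in the deposited lists, and the ranked lists also hold the authors' −log10 IDR, printed here as the IDR. The signal is the authors' own value per peak, its relation to a control is not stated, and it was not rescaled. The 16 columns of single-replicate values in the ranked lists of both replicates were not used. Depth per sample is unknown, so no interval for counting error could be given.

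Summits were taken as peak start plus offset, and compared with the TSSs of Ensembl's BDGP6 annotation. Motifs were searched within 50 bp of summits and in promoters of the Release 6 genome, with Python 3.
The code that assigns summits and finds motifs was tested on simulated data with known answers. No test was run between genes, since the members were chosen by name and there is 1 group. The core genes, the other pathway genes and the motifs were chosen with earlier results of these data known, and ATCGAT after reading the promoters. The genes named are the members, genes that share their summits, up to 3 bound genes with the highest signal per pathway group, and the nearest neighbours of the strongest member in signal. Outside this rule, CG15120 and PGRP-LE are named as the nearest genes to members, and mask and Meltrin after their calls were seen. Of 56 further pathway genes, 1 matched through a synonym (d, now dachs). Alternatives were windows of 250 and 1000 bp, the 5′ end only, the second list, the 500 strongest peaks, an overlap of 1 bp, 1 call per cluster, a motif window of 100 bp and each replicate's list.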

Additional observations from a re-analysis of the deposited data

Results flagged for a closer look

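A signal appeared in calls that the thresholded lists do not hold. The ranked promoter call of kibra had a signal of 429, with scores of 1000 in both replicates. A ranked call past the 3′ end of kibra, 56 bp upstream of a TSS of the neighbouring gene Meltrin, had a signal of 123 and a score of 1000, with 96.1 in replicate 1 and no ranked call within 500 bp of it in replicate 2. The role of the further input to the thresholded lists in their absence was not tested.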

How the results depend on the processing

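With windows of 250 or 1000 bp, the gene's 5′ end only, the second list, overlap of 1 bp in place of the summit, and 1 call per overlapping cluster, the same 6 members were bound, while the share of all protein-coding genes bound ranged from 16.9% to 21.8%. Restricted to the 500 strongest peaks, 0 members had a promoter summit, a gene body summit or a DRE at the summit. Of the other pathway genes 5 were bound, against 659 of all protein-coding genes, or 4.72%. A gene body summit was then at 0.938% of all genes, and a share for the DRE is not given. This alternative keeps fewer peaks by construction. From single replicates, 4 to 5 members and 12 to 18 other pathway genes (21.4% in replicate 2 and 32.1% in replicate 1) were bound at the promoter, against 13.6% and 18% of all genes. A gene body call was at 1 to 3 members, against 4.7% and 7.73% of all genes. In either replicate 2 members had a DRE at the summit and 9 had a ranked promoter call, which ex lacked in replicate 1 and Mer in replicate 2. Shares over all genes are not given for these 2 counts in single replicates. From both replicates together they were 24.2% of strongest promoter summits and 84.6% of protein-coding genes, so a ranked call separates little. The gene body count was 6 with overlap in place of the summit, against 19.7% of all genes, and 1 outside the promoter windows, kibra alone, against 3.11%. Adding the high-scoring ranked calls, an alternative chosen after seeing the data, gave 7 members bound and 3 with a DRE, by kibra. Of 51 member signals recomputed, 40 moved by less than 1 SD between replicates and 11 by more; 9 of these were single-replicate signals, on another scale, and the others were yki at 117 in place of 88 with a window of 1000 bp or with overlap. No paired analysis was possible because there is only 1 group. Depth is unknown, so a missing call is not evidence of absence.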
